A study of Homo sapiens with 12 samples.

Results

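Solute carriers are membrane proteins that move ions, sugars, amino acids, vitamins and metabolites across the plasma membrane and the membranes of organelles. The genes described here are all those in the probe annotation of these arrays whose symbol reads SLC, a subfamily number, A and a member number. 17 genes met that rule among the 14884 genes tested, and each was measured by 1 transcript cluster, which is the set of probes for a single locus. They belong to 11 subfamilies, 5 with several members and 6 with 1, and other carriers were not analysed here, among them the noradrenaline and vesicular monoamine carriers of neuroblastoma cells. The 17 are those that the annotation used here names, and they are no representative sample of solute carriers. 10 of the 17 were earlier named MFSD genes, after the major facilitator superfamily, 3 were PQLC genes, after the PQ-loop repeat, and 2 were ORNT genes, after ornithine transport.

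The cells were SK-N-BE(2), an established human neuroblastoma line with amplified MYCN, cultured in serum-containing medium. They were treated for 6 h with 1 µM JQ1, with 10 nM panobinostat, with both compounds at these doses, or with vehicle, and each of these 4 groups had 3 Affymetrix arrays. JQ1 blocks the bromodomains with which BET proteins bind acetylated histones, and panobinostat inhibits histone deacetylases, so both act on how acetylated chromatin is used in transcription. All groups are of 1 line, and the labels do not say whether replicates were separate cultures, so the p-values reflect only how these arrays varied, which can be technical variation.

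Levels are log2 signals as deposited, changes are log2 differences ± SE from limma (n = 3 arrays per group), and a gene was called at a Benjamini-Hochberg adjusted p under 0.05 over all 14884 genes. Arrays of 1 group correlated at 0.991 to 0.995, and arrays of different groups at 0.962 to 0.989. 9 of 10 fixed neuroblastoma markers were named in the probe annotation, which is what measured means here. All 9 lay above the median gene (percentiles 73.2 to 99.9 of mean signal). So did 1 of 3 measured Schwann cell and glia markers (SOX10, percentile 53.8), 1 of 2 fibroblast markers (LUM, 98.9) and 1 of 4 epithelium markers (KRT18, 70.8). 0 of 4 measured white blood cell, liver and kidney markers did. With the combination all 9 neuroblastoma markers were called lower, where 19.5% of all genes were. Their mean level ran from 10.23 to 10.24 over the combination arrays and from 10.89 to 10.92 over the vehicle arrays. Panobinostat alone had 6 of the 9 called lower (14.8% of all genes), at mean levels of 10.45 to 10.49. JQ1 alone had 2 lower and 1 higher (9.47% and 8.18% of all genes), at 10.81 to 10.84. These 9 markers are bright, and brighter genes were called more often, so the shares of all genes are a low baseline for them. Among genes at or above the median gene, 58.3% were called in either direction with the combination, 45.3% with panobinostat and 27.9% with JQ1. Shares called lower among such genes were not computed. The 2 measured fibroblast markers were also called lower with the combination. Their mean levels were 8.40 to 8.85 over the combination arrays and 8.91 to 9.24 over the vehicle arrays. Of these 2, 1 was called lower with JQ1 and 0 with panobinostat. Whether the fall of either set of markers had a part in the changes below was not tested. In bulk RNA, fewer cells of a state and less RNA per cell cannot be told apart.

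The members spanned a wide range of signal. The brightest was SLC71A1, whose mean of 10.91 over the 12 arrays lay at percentile 97.1 of all genes, followed by SLC71A2 at 10.71, SLC38A12 at 10.57, SLC49A4 at 10.45 and SLC60A2 at 10.06. SLC60A1 at 6.69 and SLC25A2 at 6.73 were the dimmest, at percentiles 38.8 and 39.5. 14 of the 17 lay above the median gene's mean of 7.24. A signal depends on each cluster's probes, so this order describes array signal and not transcript number.

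**Figure D1:**
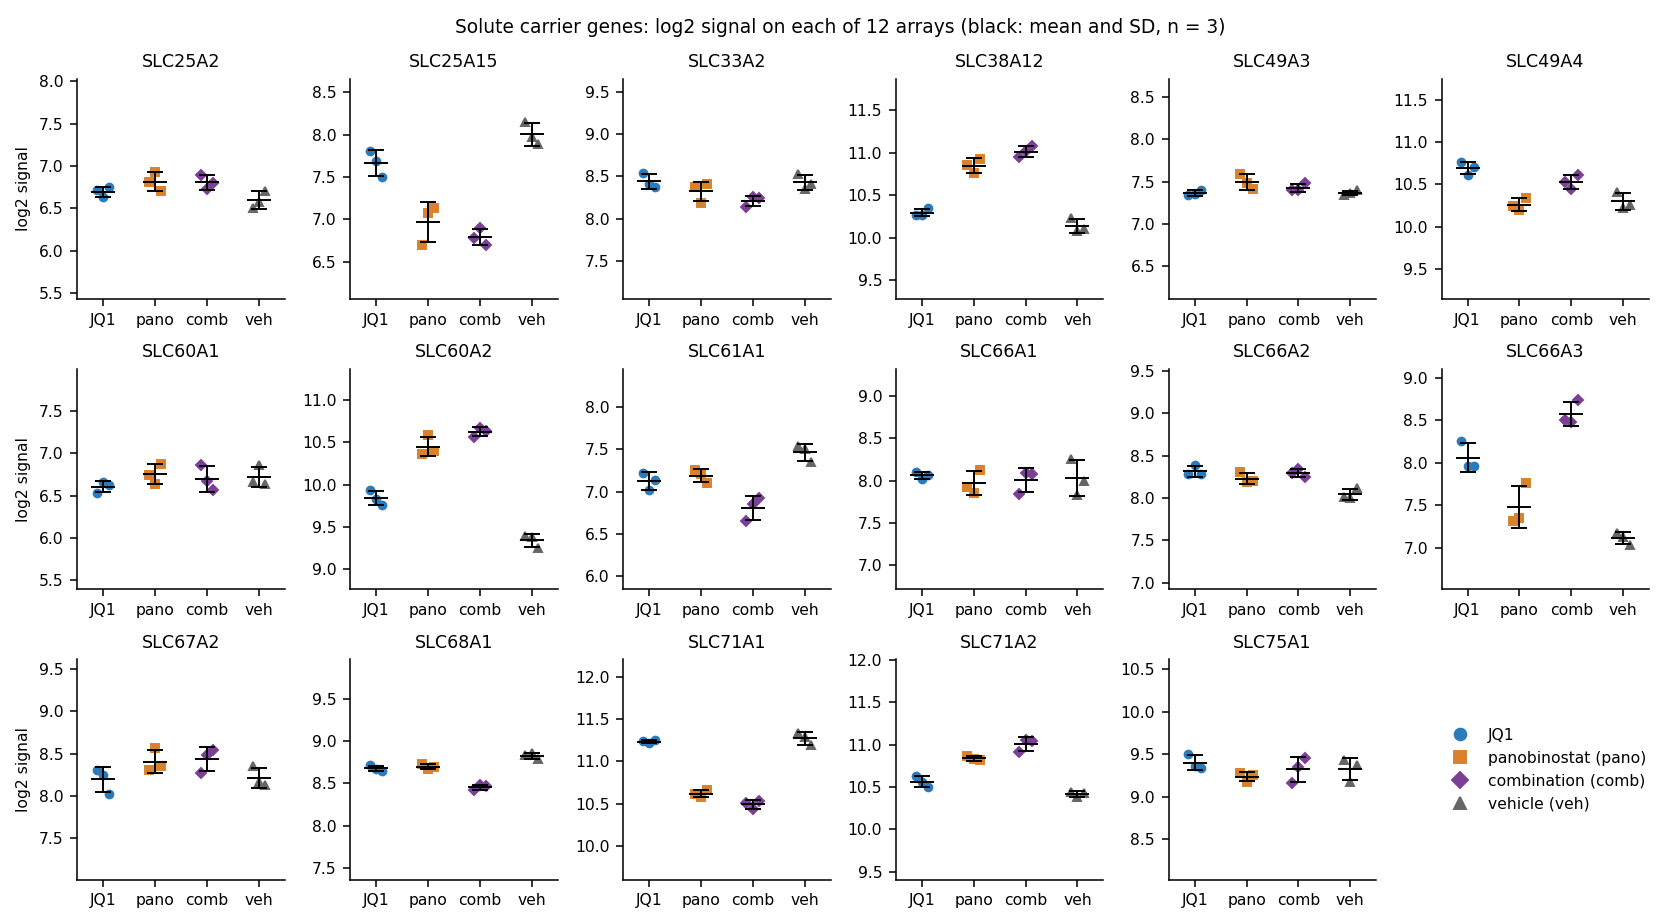
Log2 signal (vertical axis, spanning the same width in every panel) of each of the 17 solute carrier genes on the 3 arrays of the JQ1, panobinostat, combination and vehicle groups (horizontal axis), with the mean and SD in black. SLC66A3 and SLC60A2 sit highest in the combination group, whereas SLC25A15 and SLC71A1 sit lowest there, with no combination array at a vehicle level.

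Against vehicle, the largest rises were those of SLC66A3 and SLC60A2 and the largest falls those of SLC25A15 and SLC71A1, each of them with the combination. With JQ1 alone 4 of 17 members rose and 1 fell, where 17.6% of all genes were called (8.18% higher and 9.47% lower). With panobinostat alone 3 rose and 3 fell (29.3% of all genes called, 14.5% higher and 14.8% lower), and with the combination 6 rose and 4 fell (37.7% called, 18.2% higher and 19.5% lower). The 3 comparisons share the vehicle arrays. The members' median change was 0.04 with JQ1, 0.03 with panobinostat and 0.06 with the combination, beside 0.01, 0.03 and 0.03 over all genes. The treated and vehicle arrays did not overlap for 9 members with JQ1 (33.5% of all genes), 10 with panobinostat (39.8%) and 12 with the combination (46.1%).

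Most members were brighter than the median gene, and brighter genes were called more often. Among the 7442 genes at or above that median, 27.9% were called with JQ1, 45.3% with panobinostat and 58.3% with the combination. Of the 14 members in that range 4, 5 and 9 were called in these comparisons. These shares lie near those of other genes in that range.

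**Figure D2:**
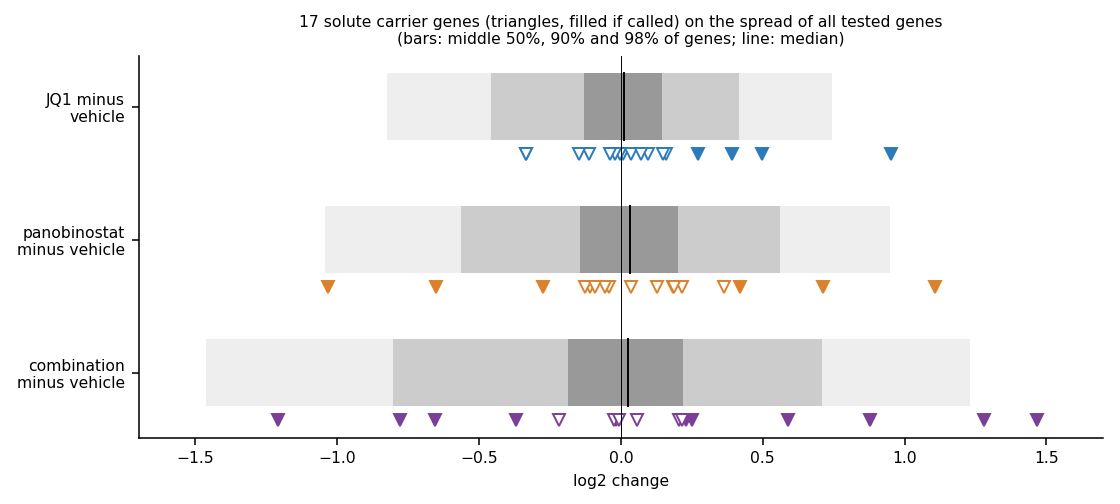
Log2 changes (horizontal axis) of the 17 solute carrier genes (triangles, filled where called) below grey bars that hold the central 50%, 90% and 98% of the changes of all 14884 genes, for JQ1, panobinostat and the combination, each minus vehicle. The medians of all genes lie at 0.01, 0.03 and 0.03, and SLC66A3 at 1.47 and SLC60A2 at 1.28 lie furthest to the right for the combination.

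The SLC66 subfamily consists of PQ-loop proteins, of which SLC66A1 exports cationic amino acids from the lysosome. Of its 3 measured members, SLC66A3 and SLC66A2 rose with JQ1 and with the combination, and SLC66A1 was not called. SLC66A3 had log2 signals of 8.26, 7.96 and 7.97 on the JQ1 arrays, 7.32, 7.35 and 7.76 on the panobinostat arrays and 8.51, 8.48 and 8.74 on the combination arrays, against 7.17, 7.13 and 7.03 on the vehicle arrays. All arrays with JQ1, alone or combined, lay above all panobinostat and vehicle arrays, and every panobinostat array lay above every vehicle array. SLC66A3 rose 1.93-fold with JQ1 (0.95 ± 0.13, adjusted p = 0.000402) and 2.76-fold with the combination (1.47 ± 0.13, adjusted p = 3.13e-06). Its value with panobinostat alone, 0.36 ± 0.13, missed the threshold (adjusted p = 0.0515). That value passed without panobinostat replicate 1 (0.44), JQ1 replicate 1 or combination replicate 3 (0.36 each), and after quantile normalization (0.36). The JQ1 change of SLC66A3 was larger in size than that of 98.9% of all genes.

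SLC66A2 was measured at 8.28, 8.39 and 8.28 on the JQ1 arrays, 8.30, 8.19 and 8.20 on the panobinostat arrays and 8.29, 8.34 and 8.25 on the combination arrays, against 8.02, 8.002 and 8.12 on the vehicle arrays. In each treated group all arrays lay above all vehicle arrays. It rose by 0.27 ± 0.07 with JQ1 (adjusted p = 0.0147) and by 0.25 ± 0.07 with the combination (adjusted p = 0.0104), and was at 0.18 ± 0.07 with panobinostat (adjusted p = 0.0614). The JQ1 call was lost without JQ1 replicate 2 (0.24) or vehicle replicate 2 (0.25), and when all clusters were tested or only the arrays compared were fitted (0.27 each). SLC66A1, the lysosomal member, ranged over 8.02 to 8.10 on JQ1 arrays, 7.86 to 8.13 on panobinostat arrays and 7.84 to 8.09 on combination arrays, against 7.83 to 8.25 on vehicle arrays, and these groups overlapped. Its changes were 0.04, -0.05 and -0.02 with JQ1, panobinostat and the combination, and the 95% interval of the last ran from -0.27 to 0.22.

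The promoter of SLC66A3 is printed because this gene showed the largest rise of the members. RefSeq promoter windows (GRCh38.p14, 250 bases before to 50 after the gene's start) were found for 14 of the 17 members. The window of SLC66A3 lies at chr2:11155217-11155516 (+ strand). Capitals in this and the later windows mark any match, on either strand, to GGGCGG (the GC box bound by SP factors), CACGTG (the E-box bound by MYC and related factors), TGATGNAA (the amino acid response element) or TGCACNC and TGCGCNC (forms of the metal response element). Overlapping matches were counted separately.
SLC66A3: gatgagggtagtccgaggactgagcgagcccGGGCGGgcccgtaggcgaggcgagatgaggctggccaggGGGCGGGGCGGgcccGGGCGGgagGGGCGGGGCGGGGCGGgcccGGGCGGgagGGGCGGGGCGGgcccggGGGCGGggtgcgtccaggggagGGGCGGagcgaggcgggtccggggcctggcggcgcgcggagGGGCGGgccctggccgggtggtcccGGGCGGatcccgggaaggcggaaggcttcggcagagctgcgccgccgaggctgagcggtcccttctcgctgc
It holds 14 matches to GGGCGG, a number that 0.0285% of all 35116 windows reach, and none to the other motifs. Its GC content is 82.3%, beside a median of 58.7% over all windows. The share among windows of like GC content was not computed, and a link of these matches to the rise was not tested.

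SLC25A15 and SLC25A2 encode carriers of the mitochondrial inner membrane that exchange ornithine, an intermediate of the urea cycle and a precursor of polyamines. Loss of SLC25A15 causes the hyperornithinemia, hyperammonemia and homocitrullinuria syndrome. SLC25A15 had log2 signals of 7.81, 7.69 and 7.50 on the JQ1 arrays, 6.70, 7.08 and 7.14 on the panobinostat arrays and 6.78, 6.89 and 6.70 on the combination arrays, against 8.15, 7.97 and 7.88 on the vehicle arrays. Every array with panobinostat, alone or combined, lay below every JQ1 and vehicle array. SLC25A15 fell 2.04-fold with panobinostat (-1.03 ± 0.12, adjusted p = 9.01e-05) and 2.31-fold with the combination (-1.21 ± 0.12, adjusted p = 1.09e-05).

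With JQ1 alone SLC25A15 was at -0.34 ± 0.12 (adjusted p = 0.0881), and its JQ1 arrays all lay below the vehicle arrays. That value passed without panobinostat replicate 1 (-0.34). SLC25A2, an intronless relative with a dim signal, ranged over 6.63 to 6.75 on JQ1 arrays, 6.70 to 6.93 on panobinostat arrays and 6.73 to 6.89 on combination arrays, against 6.51 to 6.71 on vehicle arrays. It was at 0.10 ± 0.08, 0.21 ± 0.08 and 0.21 ± 0.08 with JQ1, panobinostat and the combination, none of them called, though it passed with panobinostat without panobinostat replicate 3 or vehicle replicate 3 (0.27 each) and with the combination without vehicle replicate 3 (0.26). The SLC25A15 window, shown for the largest fall, lies at chr13:40789361-40789660 (+ strand).
SLC25A15: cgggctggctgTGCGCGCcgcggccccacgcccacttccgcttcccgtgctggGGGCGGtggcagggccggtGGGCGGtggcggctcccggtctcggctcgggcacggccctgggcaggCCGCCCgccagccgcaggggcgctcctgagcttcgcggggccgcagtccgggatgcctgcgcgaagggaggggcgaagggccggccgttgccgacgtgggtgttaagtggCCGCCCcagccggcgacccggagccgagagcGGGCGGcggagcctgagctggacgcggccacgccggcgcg
It holds 5 matches to GGGCGG and 1 to TGCGCNC.

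SLC71A1 and SLC71A2 are a pair of major facilitator relatives first described as hippocampus-abundant transcripts. They were the brightest members, and they changed in opposite directions. SLC71A1 had log2 signals of 11.24, 11.21 and 11.25 on the JQ1 arrays, 10.62, 10.58 and 10.66 on the panobinostat arrays and 10.51, 10.44 and 10.53 on the combination arrays, against 11.34, 11.29 and 11.19 on the vehicle arrays. Its arrays with panobinostat, alone or combined, all lay below those without it. SLC71A1 fell by 0.65 ± 0.06 with panobinostat (adjusted p = 2.05e-05) and by 0.78 ± 0.06 with the combination (1.72-fold, adjusted p = 1.81e-06). With JQ1 it was at -0.04 ± 0.06 (95% interval -0.18 to 0.10).

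SLC71A2 was at 10.63, 10.56 and 10.50 on the JQ1 arrays, 10.87, 10.83 and 10.82 on the panobinostat arrays and 10.91, 11.06 and 11.04 on the combination arrays, against 10.44, 10.38 and 10.43 on the vehicle arrays. The arrays of every treated group lay above the vehicle arrays, and those with panobinostat lay highest. It rose by 0.42 ± 0.07 with panobinostat (adjusted p = 0.000456) and by 0.59 ± 0.07 with the combination (adjusted p = 1.84e-05), and was at 0.15 ± 0.07 with JQ1 (adjusted p = 0.154). Median centring and quantile normalization of the arrays left both directions as they were. The promoter windows of the pair are shown because of these opposite changes, SLC71A1 at chr1:100037845-100038144 (+ strand) and SLC71A2 at chr9:94374319-94374618 (+ strand).
SLC71A1: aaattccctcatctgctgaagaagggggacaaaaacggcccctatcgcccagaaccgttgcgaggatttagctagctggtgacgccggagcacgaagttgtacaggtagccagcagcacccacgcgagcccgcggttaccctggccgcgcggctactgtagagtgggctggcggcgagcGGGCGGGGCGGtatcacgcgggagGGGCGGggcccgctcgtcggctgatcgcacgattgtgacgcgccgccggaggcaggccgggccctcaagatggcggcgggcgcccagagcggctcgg
SLC71A2: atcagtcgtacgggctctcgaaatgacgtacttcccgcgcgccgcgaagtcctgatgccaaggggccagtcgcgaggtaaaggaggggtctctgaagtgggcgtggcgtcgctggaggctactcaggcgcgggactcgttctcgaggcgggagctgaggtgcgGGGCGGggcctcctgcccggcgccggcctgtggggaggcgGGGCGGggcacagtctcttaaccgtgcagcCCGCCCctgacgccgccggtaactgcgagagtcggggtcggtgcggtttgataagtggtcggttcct
Each holds 3 matches to GGGCGG and none to the other motifs searched. Their GC content is 68.7% for SLC71A1 and 68.3% for SLC71A2.

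SLC60A2 encodes a protein described in rat kidney as a sodium-dependent glucose transporter. It had log2 signals of 9.93, 9.83 and 9.76 on the JQ1 arrays, 10.37, 10.58 and 10.40 on the panobinostat arrays and 10.56, 10.67 and 10.63 on the combination arrays, against 9.39, 9.38 and 9.26 on the vehicle arrays. The groups did not overlap except for panobinostat and the combination, of which panobinostat replicate 2 lay within the range of the combination arrays. SLC60A2 rose 1.41-fold with JQ1 (0.50 ± 0.08, adjusted p = 0.00116), 2.15-fold with panobinostat (1.11 ± 0.08, adjusted p = 2.52e-06) and 2.43-fold with the combination (1.28 ± 0.08, adjusted p = 2.39e-07). Besides SLC61A1, it was the member called with each treatment.

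Its relative SLC60A1 was dim and ranged over 6.53 to 6.66 on JQ1 arrays, 6.63 to 6.87 on panobinostat arrays and 6.56 to 6.86 on combination arrays, against 6.64 to 6.86 on vehicle arrays, with all groups overlapping. SLC60A1 was at -0.11 ± 0.10, 0.03 ± 0.10 and -0.02 ± 0.10 with JQ1, panobinostat and the combination, with a 95% interval of -0.23 to 0.19 for the last. The SLC60A2 window, printed because the gene rose with every treatment, lies at chr6:111259089-111259388 (+ strand).
SLC60A2: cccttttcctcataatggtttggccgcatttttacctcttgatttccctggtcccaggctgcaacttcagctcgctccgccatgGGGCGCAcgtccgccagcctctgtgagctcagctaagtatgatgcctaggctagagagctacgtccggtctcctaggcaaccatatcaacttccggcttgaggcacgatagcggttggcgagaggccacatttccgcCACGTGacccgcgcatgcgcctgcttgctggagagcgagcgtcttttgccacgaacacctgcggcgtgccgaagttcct
It holds 1 match to CACGTG and 1 to TGCGCNC, and none to GGGCGG. Among all windows, 45% hold GGGCGG, 7.26% CACGTG, 3.62% TGATGNAA, 12.1% TGCACNC and 20% TGCGCNC.

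**Figure D3:**
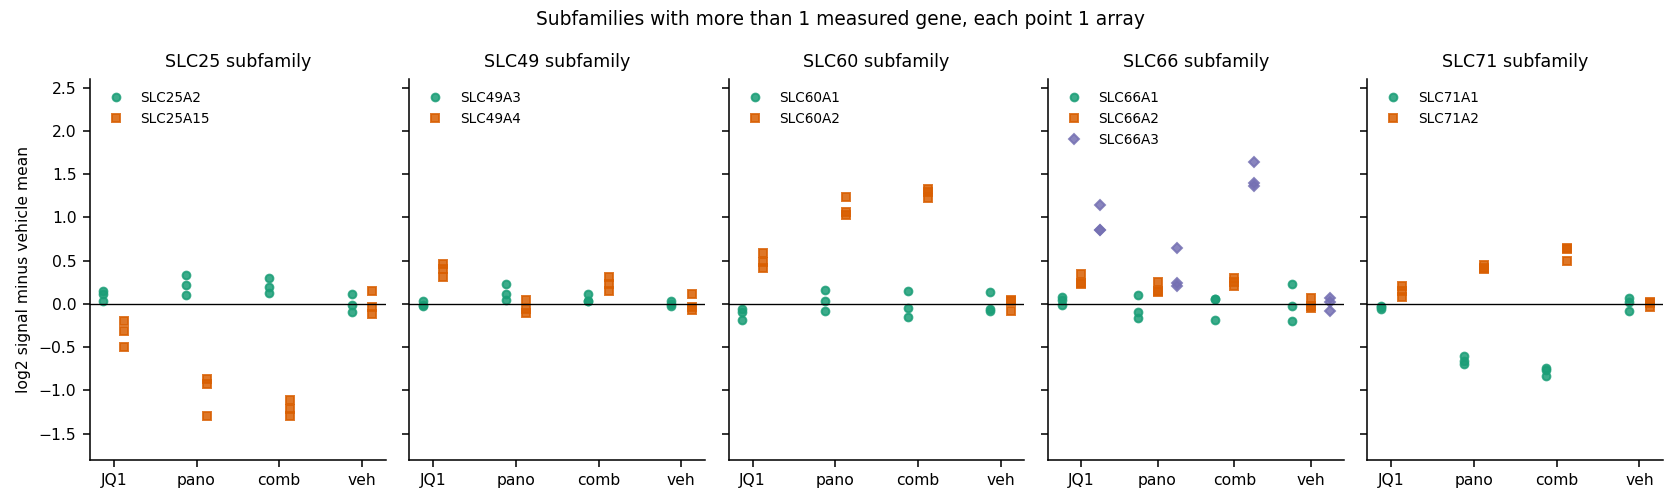
Log2 signal minus the vehicle mean of the same gene (vertical axis) for each array of the JQ1, panobinostat, combination and vehicle groups (horizontal axis), in the 5 subfamilies with more than 1 measured gene. SLC71A1 and SLC71A2 lie on opposite sides of 0 in the panobinostat and combination groups, and SLC60A2 and SLC66A3 lie far above 0 where SLC60A1 and SLC66A1 do not.

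SLC38A12, earlier named TMEM104, shares its subfamily number with the sodium-coupled neutral amino acid transporters. Its log2 signals were 10.27, 10.27 and 10.35 on the JQ1 arrays, 10.86, 10.76 and 10.93 on the panobinostat arrays and 10.95, 11.02 and 11.08 on the combination arrays, against 10.23, 10.08 and 10.10 on the vehicle arrays. Arrays with panobinostat lay above all others, and JQ1 arrays lay just above vehicle arrays. SLC38A12 rose 1.64-fold with panobinostat (0.71 ± 0.07, adjusted p = 2.71e-05) and 1.84-fold with the combination (0.88 ± 0.07, adjusted p = 1.85e-06), and was at 0.16 ± 0.07 with JQ1 (adjusted p = 0.17).

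SLC61A1 encodes a molybdate transporter, which supplies the metal of the molybdenum cofactor. It was the member that fell with each treatment, with log2 signals of 7.22, 7.02 and 7.14 on the JQ1 arrays, 7.26, 7.21 and 7.10 on the panobinostat arrays and 6.65, 6.85 and 6.92 on the combination arrays, against 7.54, 7.50 and 7.35 on the vehicle arrays. In each treated group all arrays lay below all vehicle arrays, and the combination arrays lay lowest. SLC61A1 fell by 0.34 ± 0.09 with JQ1 (adjusted p = 0.0246), by 0.27 ± 0.09 with panobinostat (adjusted p = 0.0409) and by 0.66 ± 0.09 with the combination (1.58-fold, adjusted p = 0.000115).

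The calls of SLC61A1 with either compound alone depended on single arrays, whereas its combination call did not. The JQ1 call was lost without JQ1 replicate 2 (-0.28) or 3 (-0.34) or vehicle replicate 1 (-0.30) or 2 (-0.32), after median centring (-0.33) and when all clusters were tested (-0.34). The panobinostat call was lost without panobinostat replicate 2 (-0.28) or 3 (-0.23), vehicle replicate 1 (-0.24) or 2 (-0.25), JQ1 replicate 3 or combination replicate 2 (-0.27 each), and when all clusters were tested or only the arrays compared were fitted (-0.27 each).

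The SLC49 subfamily also holds the heme and choline carriers of the FLVCR genes, and its SLC49A4, once named DIRC2, encodes a protein of the lysosomal membrane. SLC49A4 had log2 signals of 10.76, 10.61 and 10.71 on the JQ1 arrays, 10.24, 10.20 and 10.35 on the panobinostat arrays and 10.53, 10.45 and 10.61 on the combination arrays, against 10.42, 10.23 and 10.26 on the vehicle arrays. The JQ1 and combination arrays lay above the vehicle arrays, and the panobinostat arrays overlapped them. SLC49A4 rose by 0.39 ± 0.08 with JQ1 (1.31-fold, adjusted p = 0.00459) and by 0.23 ± 0.08 with the combination (adjusted p = 0.0359), and was at -0.04 ± 0.08 with panobinostat (95% interval -0.21 to 0.13). The combination call was lost without combination replicate 1 (0.23) or 3 (0.19) or vehicle replicate 2 (0.19) or 3 (0.21), after median centring (0.19), and when all clusters were tested or only the arrays compared were fitted (0.23 each). SLC49A3 ranged over 7.34 to 7.40 on JQ1 arrays, 7.41 to 7.59 on panobinostat arrays and 7.39 to 7.48 on combination arrays, against 7.34 to 7.40 on vehicle arrays, and it was not called in any of these comparisons (-0.002, 0.13 and 0.06 with JQ1, panobinostat and the combination).

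SLC68A1, a major facilitator relative, had closely grouped log2 signals of 8.71, 8.67 and 8.65 on the JQ1 arrays, 8.73, 8.67 and 8.70 on the panobinostat arrays and 8.42, 8.48 and 8.46 on the combination arrays, against 8.83, 8.86 and 8.79 on the vehicle arrays. Every treated array lay below every vehicle array. It fell by 0.37 ± 0.06 with the combination (1.29-fold, adjusted p = 0.000265), whereas its values of -0.15 ± 0.06 with JQ1 (adjusted p = 0.104) and -0.13 ± 0.06 with panobinostat (adjusted p = 0.122) were not called.

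The remaining 3 members were, like SLC25A2, SLC49A3, SLC60A1 and SLC66A1, not called against vehicle. SLC33A2, a relative of the acetyl-CoA transporter SLC33A1, ranged over 8.38 to 8.54 on JQ1 arrays, 8.19 to 8.40 on panobinostat arrays and 8.14 to 8.25 on combination arrays, against 8.35 to 8.53 on vehicle arrays. Its combination arrays all lay below its vehicle arrays, at -0.22 ± 0.08 (adjusted p = 0.0533), and this value passed without panobinostat replicate 2 (-0.22) or vehicle replicate 2 (-0.26). SLC67A2 ranged over 8.03 to 8.31 on JQ1 arrays, 8.30 to 8.56 on panobinostat arrays and 8.28 to 8.54 on combination arrays, against 8.13 to 8.35 on vehicle arrays, and was at -0.02, 0.19 and 0.22 with JQ1, panobinostat and the combination, the last 2 of which passed after quantile normalization (0.24 and 0.26). SLC75A1, which resembles bacterial tetracycline efflux proteins, ranged over 9.33 to 9.50 on JQ1 arrays, 9.17 to 9.27 on panobinostat arrays and 9.15 to 9.46 on combination arrays, against 9.18 to 9.43 on vehicle arrays, and its 3 values lay between -0.09 and 0.07.

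**Figure D4:**
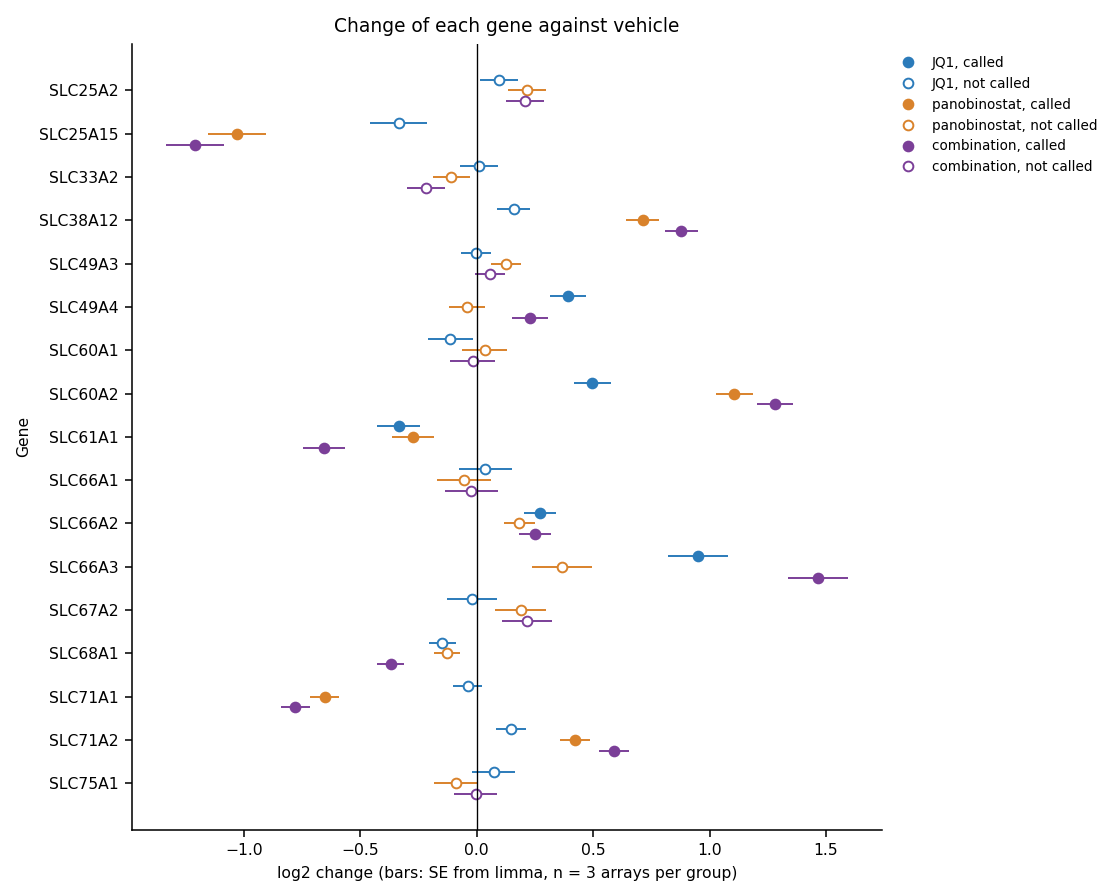
Log2 change against vehicle (horizontal axis, bars show SE) of each of the 17 genes (rows) with JQ1, panobinostat and the combination, filled where called. SLC60A2 is filled on the right and SLC61A1 on the left for all 3 treatments, and SLC25A15, SLC38A12, SLC71A1 and SLC71A2 are filled for panobinostat and the combination but not for JQ1.

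The single compounds were compared directly to find members that respond differently to BET and to HDAC inhibition. 7 of 17 members were called between panobinostat and JQ1 (23.3% of all genes, 11.6% in each direction). Shares among brighter genes alone, where most members lie, were not computed for this comparison or for the combination against either single compound. No excess over all genes is read from these counts. SLC60A2 (0.61 ± 0.08), SLC38A12 (0.55 ± 0.07) and SLC71A2 (0.27 ± 0.07) were higher with panobinostat, with adjusted p = 0.00024, 0.000235 and 0.00935. SLC25A15 (-0.70 ± 0.12), SLC71A1 (-0.61 ± 0.06), SLC66A3 (-0.59 ± 0.13) and SLC49A4 (-0.43 ± 0.08) were lower with panobinostat than with JQ1. Their adjusted p were 0.00183, 6.39e-05, 0.00616 and 0.00193 in that order. The SLC71A2 call was lost after median centring (0.21). For 9 members the arrays of these groups did not overlap, beside 39.3% of all genes.

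Arrays with both compounds were also compared with those of either single treatment. With panobinostat present besides JQ1, 8 of 17 members differed from JQ1 alone, 4 higher and 4 lower (25.6% of all genes, 11.7% higher and 13.9% lower), and for 10 the arrays did not overlap (41.7% of all genes). The combination was above JQ1 for SLC60A2 (0.78 ± 0.08, adjusted p = 3.56e-05), SLC38A12 (0.72 ± 0.07), SLC66A3 (0.51 ± 0.13) and SLC71A2 (0.44 ± 0.07). It was below JQ1 for SLC25A15 (-0.87 ± 0.12), SLC71A1 (-0.74 ± 0.06, adjusted p = 1.09e-05), SLC61A1 (-0.32 ± 0.09) and SLC68A1 (-0.22 ± 0.06). The SLC61A1 call was lost without JQ1 replicate 1 (-0.27) or 3 (-0.31) or combination replicate 1 (-0.24), and that of SLC68A1 without JQ1 replicate 1 (-0.20). Both were lost when all clusters were tested (-0.32 and -0.22).

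With JQ1 present besides panobinostat, 4 of 17 members differed from panobinostat alone, 2 higher and 2 lower (14.7% of all genes, 6.13% higher and 8.55% lower), and for 7 the arrays did not overlap (30.9% of all genes). SLC66A3 was 2.14-fold higher with the combination than with panobinostat (1.10 ± 0.13, adjusted p = 0.00027), a difference larger in size than that of 99.8% of all genes. SLC49A4 was higher by 0.27 ± 0.08 (adjusted p = 0.0382). SLC61A1 (-0.38 ± 0.09, adjusted p = 0.0158) and SLC68A1 (-0.24 ± 0.06, adjusted p = 0.0153) were lower.

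Of these 4 calls, that of SLC66A3 held without any single array. Without panobinostat replicate 1 or combination replicate 1 it was the 1 call left. SLC61A1 was then at -0.35 without panobinostat replicate 1 and at -0.30 without combination replicate 1, and SLC68A1 at -0.23 without either. SLC49A4 was lost without JQ1 replicate 1 or 3 or vehicle replicate 3 (0.27 each), combination replicate 1 (0.27), 2 (0.31) or 3 (0.23), or panobinostat replicate 1 (0.26) or 2 (0.24), and after median centring 2 members were called, SLC66A3 and SLC61A1. SLC66A3 was the 1 call left when all clusters were tested or only the arrays compared were fitted.

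**Figure D5:**
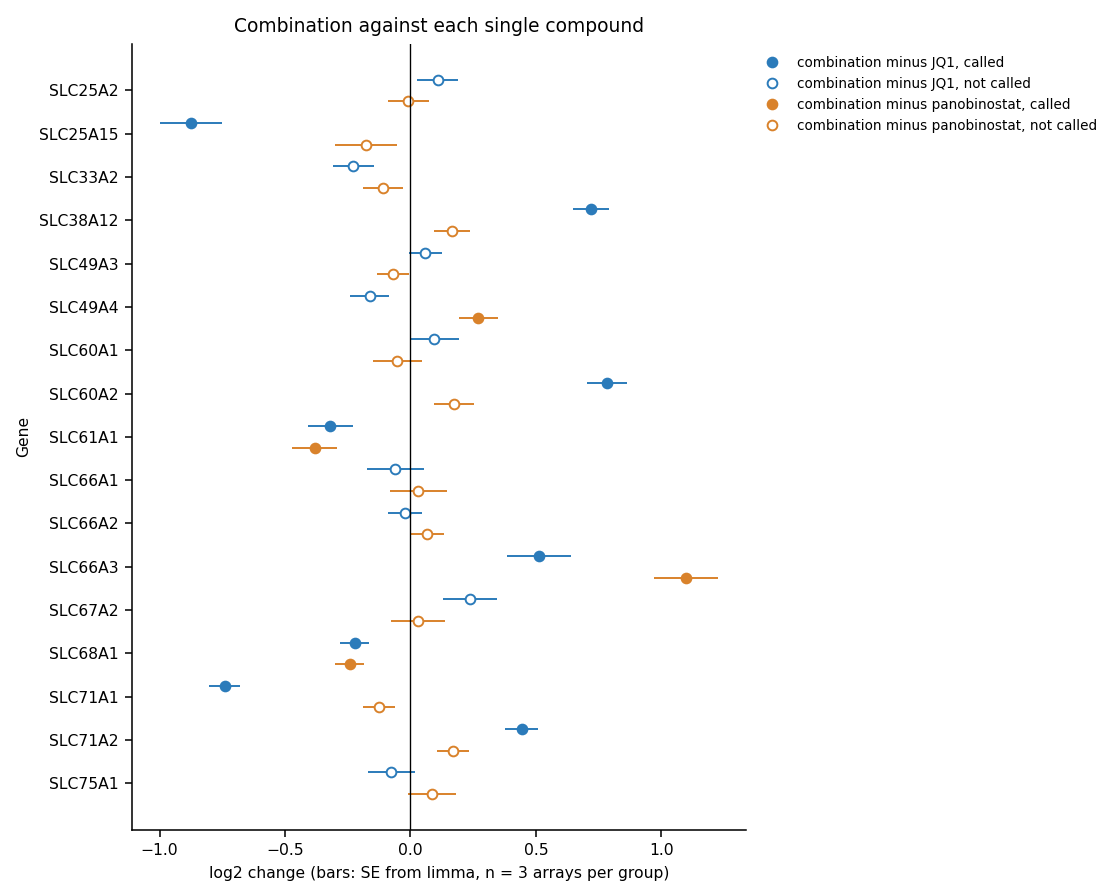
Log2 difference (horizontal axis, bars show SE) of the combination minus JQ1 and of the combination minus panobinostat for each of the 17 genes (rows), filled where called. SLC66A3, SLC61A1 and SLC68A1 are filled in both comparisons, and SLC25A15 and SLC71A1 lie far to the left against JQ1 and near 0 against panobinostat.

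3 members, SLC66A3, SLC61A1 and SLC68A1, differed with the combination from vehicle and from both single compounds in 1 direction. For SLC25A15, SLC38A12, SLC60A2, SLC71A1 and SLC71A2 the combination differed from JQ1 but was not called against panobinostat, where the differences were -0.18, 0.17, 0.17, -0.13 and 0.17. The 95% intervals of these differences ran from -0.45 to 0.09 for SLC25A15, from 0.01 to 0.32 for SLC38A12, from 0.00 to 0.35 for SLC60A2, from -0.26 to 0.01 for SLC71A1 and from 0.03 to 0.31 for SLC71A2, and 3 of them lie above 0.

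The interaction asks whether log2 changes add up, and is the combination's change less the JQ1 and the panobinostat change. By limma 0 of 17 members were called (0.759% of all genes, 0.309% higher and 0.45% lower). Beside 2037 of all 14884 genes, 1 of the 17 members had an unadjusted p under 0.05 in that fit, which is no excess. That was SLC60A2 at -0.32 ± 0.11 (adjusted p = 0.217, 95% interval -0.57 to -0.08), whose combination rise of 1.28 lay below the sum of its single changes of 0.50 and 1.11. SLC66A3 was at 0.15 ± 0.18 (95% interval -0.25 to 0.55) and SLC25A15 at 0.16 ± 0.17 (95% interval -0.23 to 0.54). The intervals of SLC66A3 and SLC25A15 include 0 and also differences as large as several of the called changes above.

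The promoter windows of the members were rich in GC whichever way the genes moved. The median GC content was 71.3% in the 5 windows of members called higher with the combination, 68.2% in the 4 of members called lower and 73.0% in the 6 of members not called, beside 58.7% over all windows. GGGCGG was found in 4 of 5, 4 of 4 and 5 of 6 windows of these sets, beside 45% of all windows. The 6 windows of members not called are of 5 genes, since SLC75A1 has 2 of them. The window without GGGCGG among these 6 is of SLC75A1, whose other window holds it. CACGTG was found in 1 of 5 (SLC60A2), 1 of 4 (SLC61A1) and 0 of 6, beside 7.26% of all windows. TGATGNAA was found in 0 of the 15 windows (3.62% of all windows) and TGCACNC in 1, of SLC75A1 (12.1%). TGCGCNC was found in 2 of 5, 2 of 4 and 2 of 6 (20%). A match describes letters in the window and is not a binding site.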

How the data were processed

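RNA from 12 samples of SK-N-BE(2) cells was measured on Affymetrix Human Gene 2.0 ST arrays, per the labels. The deposited table holds 53617 transcript clusters by 12 arrays, and its values were taken as log2 signals because they run from 1.391 to 14.1. The log base was not given in the sources used here, so folds rest on that reading. MAS5 and affy are named without version or role, per the submitters' processing notes. Background correction, summarisation, scaling and genome build: not given in the sources used here. No detection call was used, so signal over background is unknown, and precision is limited by how many arrays there are.

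The probe annotation named 16098 clusters with 1 symbol each and left 37519 unnamed. The brightest cluster stood for each symbol, giving 14884 genes. RefSeq's gene table (GRCh38.p14) gave the members' earlier names. One limma 3.58.1 fit in R 4.3.3 gave 6 pairs of groups and the interaction, with two-sided tests. It used lmFit and eBayes, a mean per group over 12 arrays, no replicate term, and 8 residual and 3.457 prior degrees of freedom. In data simulated with each gene's own spread, a log2 shift of 0.5 in 100 genes of the combination was called for 52. A shift of 1 was called for 93, and 5 unchanged genes were called each time. The real comparison of the combination with vehicle called 5614 genes, so these shares need not hold for it. An exact permutation p for 3 against 3 arrays has a minimum of 0.1, so none is given.

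The members, the 8 lists of related genes and the tests were chosen with earlier results of these data known. The rule for named genes took members with the largest called changes in each comparison, the brightest members and some carriers known in this tissue. With 17 members found, all are described, and the rule's carriers outside them were not analysed here. A grouping by transport class was dropped because it left out most subfamilies found. The alternatives were array centring, quantile normalization, dropping the dimmest 40 percent of genes, averaging clusters, testing all clusters, a replicate block, fitting only the arrays compared, leaving out each array and, chosen after seeing the data, leaving out the 2 arrays farthest from their groups.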

Additional observations from a re-analysis of the deposited data

How the results depend on the processing

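73 single values of members were recomputed 1451 times under the alternatives. They were all changes against vehicle, the changes already called in other pairs of groups, and the interactions of SLC25A15, SLC60A2 and SLC66A2. Gains in those other pairs were thus not recorded, though quantile normalization gave 10 calls for the combination against JQ1 in place of 8. Leaving out an array outside a comparison kept its change by construction, so only the call could differ. 1339 kept direction and call, 60 lost the call, 17 gained it and 35 changed sign, of which 0 had been called. The number of members called with JQ1 was 3 when all clusters were tested, and leaving out 1 array gave 3 to 6 (3 without JQ1 replicate 2 or vehicle replicate 2). For the combination against panobinostat it was 2 after median centring, 1 with all clusters tested, 1 with only the arrays compared and 1 without the 2 arrays farthest from their groups (vehicle replicate 1 and panobinostat replicate 1), and leaving out 1 array gave 1 to 4. The other counts stayed within 1.5 times. The median change for panobinostat against JQ1 was -0.09 without dim genes, a filter that leaves out SLC25A2 and SLC60A1. That filter also gave calls, from fewer genes tested, to SLC25A15 and SLC68A1 with JQ1, SLC66A2 and SLC66A3 with panobinostat and SLC33A2 with the combination. Averaging clusters changed no member's value, since each has 1 cluster.

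The sign changes were of values that had not been called. With JQ1, SLC49A3 was at 0.004 after median centring and 0.017 after quantile normalization, and SLC67A2 at 0.047 without the 2 farthest arrays. Leaving out 1 array gave -0.04 to 0.058 for SLC33A2, -0.021 to 0.013 for SLC49A3, -0.063 to 0.149 for SLC66A1, -0.08 to 0.064 for SLC67A2 and -0.003 to 0.123 for SLC75A1. With panobinostat, SLC49A4 was at 0.012 after quantile normalization and 0.026 without the farthest arrays, SLC60A1 at -0.019 after centring and 0.00 after quantile normalization, and SLC66A1 at 0.08 without the farthest arrays. Leaving out 1 array gave -0.082 to 0.017 for SLC49A4, -0.027 to 0.104 for SLC60A1 and -0.154 to 0.058 for SLC66A1. With the combination, SLC66A1 was at 0.019 and SLC75A1 at 0.019 after quantile normalization, and they were at 0.089 and 0.046 without the farthest arrays. Leaving out 1 array gave -0.10 to 0.052 for SLC60A1, -0.123 to 0.089 for SLC66A1 and -0.08 to 0.077 for SLC75A1. The SLC25A15 interaction was at -0.053 without the farthest arrays. The cause of these differences was not tested.

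Deviations of same-numbered arrays from their group means correlated between -0.693 and 0.236, above 0.1 in 4 of 18 pairs. 0 of 12 arrays correlated best with their own number. Deviations within a group sum to 0, so a negative correlation between same-numbered arrays favours arrays of other numbers. That count therefore cannot show whether same-numbered arrays share an effect. The main fit did not read the numbers as pairs. The replicate 1 arrays did share a pattern. Vehicle correlated at -0.693 with panobinostat and -0.648 with the combination, and JQ1 at -0.479 and -0.509. Vehicle with JQ1 was at 0.201, and panobinostat with the combination at 0.236. What set replicate 1 apart along panobinostat treatment was not tested. With the replicate block 4 members were called for JQ1, 5 for panobinostat, 10 for the combination, 7 for the combination against JQ1, 4 against panobinostat, 7 for panobinostat against JQ1 and 0 for the interaction. The calls lost under the block were those of SLC61A1 with JQ1 (-0.34), with panobinostat (-0.27) and for the combination against JQ1 (-0.32). How far the dim SLC25A2 and SLC60A1 lie above background is unknown.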

Other observations

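Lists of genes related to carriers were read in the same fit, beside a median over all genes of 0.01 with JQ1, 0.03 with panobinostat and 0.03 with the combination. Of all genes, 17.6% were called with JQ1 (8.18% higher and 9.47% lower), 29.3% with panobinostat (14.5% higher and 14.8% lower) and 37.7% with the combination (18.2% higher and 19.5% lower), and nothing particular to a list is read from its counts. Of 13 measured accessory and partner proteins of carriers, 2 rose and 3 fell with JQ1, 6 and 2 with panobinostat, and 5 and 3 with the combination (medians 0.11, 0.24 and 0.17). With the combination EMB, the partner of monocarboxylate carriers, fell by 1.19 ± 0.09, whereas its relatives NPTN and BSG rose by 0.50 ± 0.06 and 0.21 ± 0.06. CHP1, a cofactor of sodium-proton exchangers, rose by 0.89 ± 0.11. Of 11 measured metallothionein and zinc response genes, 2 rose with each single compound and 5 with the combination, and 0 fell (medians 0.13 with JQ1, 0.29 with panobinostat and 0.36 with the combination). MT2A was at 0.89 ± 0.09 and MTF1, the zinc-sensing transcription factor, at 0.42 ± 0.09 with the combination.

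Beside the same shares of all genes (17.6%, 29.3% and 37.7%), of 20 measured genes of the ATF4 amino acid response, 5 rose and 2 fell with JQ1, 3 and 8 with panobinostat, and 5 and 5 with the combination (medians 0.03, -0.04 and 0.04). With the combination SESN2 was at 1.32 ± 0.11 and CTH, which makes cysteine, at 1.13 ± 0.17, while VLDLR was at -1.07 ± 0.07. Of 14 genes of catecholamine synthesis and storage, 1 rose and 3 fell with JQ1, 3 and 6 with panobinostat, and 2 and 7 with the combination (medians -0.07, -0.17 and -0.19). GCH1, which starts the synthesis of the cofactor of tyrosine hydroxylase, rose by 1.03 ± 0.09 with the combination, and SCG2, a granin, fell by 1.41 ± 0.08. Of 9 glycolysis and lactate genes, 0 rose and 1 fell with each single compound, and 2 rose and 1 fell with the combination (medians 0.06, -0.005 and 0.03), with LDHA at -0.51 ± 0.08. By limma none of 3 measured Na/K-ATPase regulators (FXYD5, FXYD6 and FXYD7) was called with any treatment (medians -0.08, 0.08 and 0.10). The lists of ABC transporters and SLCO carriers had 0 genes named in the probe annotation and were not analysed here. Since 37519 clusters were left unnamed, list genes counted as not measured may still have probes on the array.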
